A study of Drosophila melanogaster with 28 samples.

Results

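Translation efficiency (TE), the ratio of ribosome footprints to RNA for each gene, was compared between ovaries collected 0.5 h after heat shock (AHS) and ovaries without heat shock (no HS). A gene entered the comparison when it exceeded 10 FPKM (fragments per kilobase of transcript, scaled to the mapped fragments of the library) in at least 1 of both RNA-seq values and in at least 1 of both Ribo-seq values. Of 13884 genes present in the RNA-seq and the Ribo-seq tables, 5875 met this rule, and 5872 of them had all 4 values above 0. In 5320 all 4 values exceeded 10 FPKM, and 555 passed through some of them. All flies were w mutant females. Both groups carried nosP-GAL4-NGT40, a germline GAL4 driver, over a wild type chromosome (nosP-GAL4-NGT40/+). They also carried the allele bam86, which the authors write bamΔ86, on both copies of chromosome 3. One of these copies also held the transgene P{w[+mC]=hs-bam.O}11d, which supplies Bam under a heat shock promoter. Each library was made from whole adult ovaries, pooled from many females for Ribo-seq, so germline and somatic cells were measured together. The 0.5 h AHS females spent 1 h at 37 °C and then 2 h at 34 °C before 0.5 h at 25 °C, while the no HS females had no heat shock. Each group and assay had 2 biological replicates, which makes 8 of the 28 libraries of the series, but the deposited tables give 1 value per gene and group over both replicates. The spread between replicates could therefore not be computed, and no p-value or SD is given. The heat was given in vials without yeast, to females fed on yeast before. The heat itself, this time without yeast and the Bam protein supplied came together in the 0.5 h AHS ovaries and cannot be told apart here.

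As background, the bam mutant ovary fills with cells that resemble germline stem cells, because Bam is the factor that starts their differentiation. A heat shock activates the transcription factor Hsf in nearly all cells, and the resulting RNAs encode chaperones that hold or refold damaged proteins. In Drosophila, strong heat also slows cap-dependent initiation, while RNAs of the heat shock genes, which have adenine-rich leaders, keep being translated. Ribo-seq sequences the RNA stretch covered by each ribosome, so its ratio to RNA-seq estimates the number of ribosomes per transcript. Both assays give relative values, and a uniform rise or fall of translation in the whole ovary would not appear in the ratio.

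The start codon regions of the genes on which the results turn are shown because initiation takes place there. They are from the RefSeq Release 6 genome, which is the dm6 build of the tables, with the last 12 leader bases and the first 9 coding bases in lower case and the start codon in capitals.
Hsp23 (chromosome 3L): taaaaaacaaaaATGgcaaatatt
Hsp26 (chromosome 3L): ggaaacgtaaaaATGtcgctatct
Hsp27 (chromosome 3L): aaaaaatcaaaaATGtcaattata
Hsp68 (chromosome 3R): gaaatagccaagATGccagccatt
bam (chromosome 3R): aacttaagaataATGcttaatgca
nos (chromosome 3R): cggattttcgccATGttccgcagc
E(spl)m3-HLH (chromosome 3R): acccaatcgatcATGgtcatggag
Cp15 (chromosome 3L): taagcactcaccATGaagtacctg

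The leaders of the 4 chaperones shown have 45.7% A in Hsp23, 45.2% in Hsp26, 49.6% in Hsp27 and 50.5% in Hsp68. Of the 11 chaperones over the FPKM minimum, 6 lie in the A-richest quartile of genes, which starts at 35.4%, these 4 with Hsp70Bc (45.0%) and l(2)efl (36.6%). The other 5 lie below it, with 35.3% in Hsp22, 33.6% in stv, 33.3% in Hsp67Bc, 30.7% in DnaJ-1 and 29.1% in Hsp83. Leaders here and below are those of the annotated transcript with the longest coding sequence. For Hsp22 this is a leader of 1186 bases, just below the cut, and its other transcripts were not examined. The leaders of E(spl)m3-HLH (40.6%) and Cp15 (39.1%) lie in the A-richest quartile too, while bam has 33.8% and nos 25.5% A. The bam sequence and leader are those of the annotated gene, and the leader of the hs-bam transgene was not examined.

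The ratio of footprints to RNA stayed within 1.6-fold for 5563 of the 5872 genes (94.7%). A gene was called when its TE at 0.5 h AHS was more than 1.6-fold above or below its TE at no HS. The calls numbered 192 genes with higher TE (3.27%) and 117 genes with lower TE (1.99%), or 309 in all (5.26%). With all changes centred on their median, the calls were 153 higher and 141 lower. The median log2 change in TE was 0.05, with an SD of 0.37 over genes and the middle 50% of genes between -0.13 and 0.25. The order of genes by TE was similar in both groups, with a Spearman rho of 0.95 across genes of the same tables, which are not independent replicates. Median TE was 1.48 at 0.5 h AHS and 1.42 at no HS, and the range between the 5th and 95th percentiles was 0.492 to 6.79 at 0.5 h AHS and 0.461 to 7.11 at no HS.

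The deposited 95% bounds were used as the error of each value. They gave a median standard error of 0.34 for the log2 change in TE, so the 95% interval of a typical gene reached about as far to each side as the threshold itself, 0.68 on the log2 scale. Of the called genes, 97 with higher TE (1.65% of all) and 60 with lower TE (1.02%) had a 95% interval that excluded 0. Whatever the size of the change, the interval excluded 0 in 189 of the 5872 genes (3.22%). Intervals at 95% would exclude 0 in about that share or more if no gene had changed. An interval that excludes 0 therefore does not establish a change in a single gene. Just inside the threshold lay Tg at 0.68 and Nhe1 at -0.68 on the log2 scale, and just outside it Ucp4A, also at 0.68 when rounded.

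The calls came mainly from the footprints. Among the genes with higher TE, 114 had more footprints by over 1.6-fold with RNA within 1.6-fold, and 23 had less RNA with footprints within 1.6-fold. In 16 genes RNA and footprints were both past 1.6-fold in the same direction, in 1 gene in opposite directions, and in 38 neither was past it alone. Among the genes with lower TE, 66 had fewer footprints with RNA within 1.6-fold, 16 had more RNA with footprints within 1.6-fold, 15 had both past 1.6-fold in the same direction, 3 in opposite directions and 17 neither. Taken alone, RNA was past 1.6-fold upward in 223 genes (3.8%) and downward in 215 (3.66%), against 555 (9.45%) and 341 (5.81%) for footprints. Across the 5872 genes the log2 changes of RNA and of footprints correlated with a Pearson r of 0.78 and a Spearman rho of 0.72, as a description over genes.

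**Figure D1:**
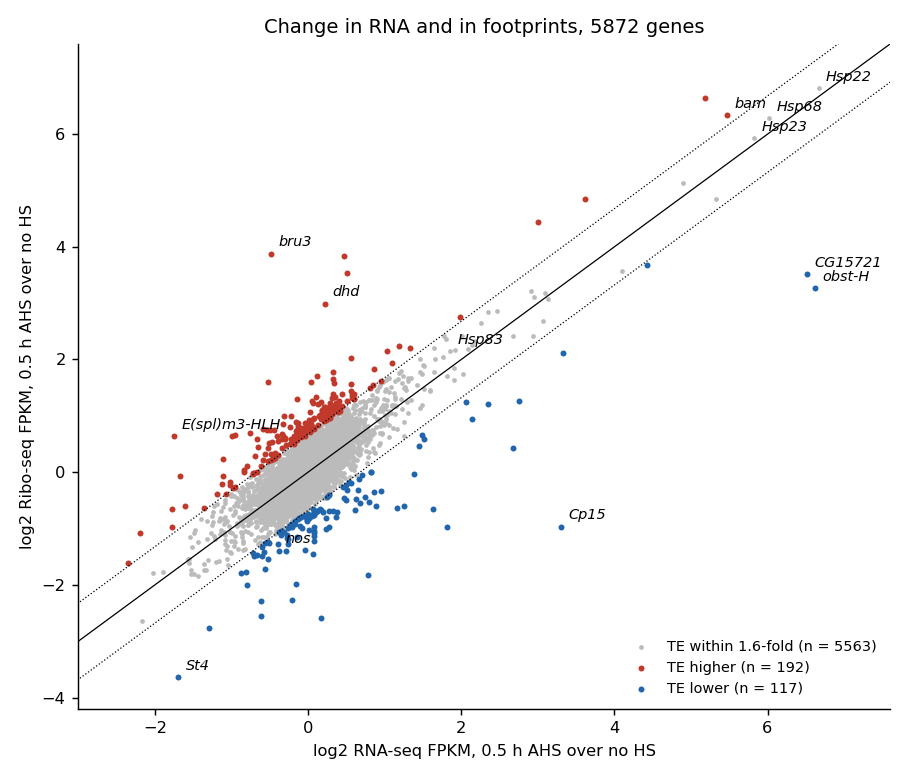
Log2 change in RNA-seq FPKM (x axis) and in Ribo-seq FPKM (y axis), 0.5 h AHS over no HS, one point for each of 5872 genes. The solid line marks equal change and the dotted lines a 1.6-fold change in TE; 192 genes lie above the upper line and 117 below the lower line, while Hsp22, Hsp23 and Hsp68 lie between them near the top right.

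RNA was more than 3-fold higher at 0.5 h AHS in 51 genes. Of these, 25 passed the RNA minimum and 14 also the footprint minimum through their 0.5 h AHS value alone, so the rule itself selected for a gain. Footprints were over 1.6-fold higher in 47 of the 51, with a median log2 change of 2.36 in RNA, 2.41 in footprints and 0.09 in TE. TE was called higher in 5 of these 51 and lower in 12, which is 33.3% called against 5.26% over all genes. The 5, named after their values were seen, were bam, CG13227, GstE7, GstD10 and AOX1, of which bam alone had an interval above 0. Genes with over 3-fold less RNA were fewer, with 11 genes and a median log2 change of -1.78 in RNA and -1.08 in footprints. Of these 11, 6 passed the RNA minimum and 3 also the footprint minimum through their no HS value alone. TE was called higher in 7 and lower in 1, which is 72.7% called against 5.26% over all genes. RNA is the denominator of TE and chose both sets, so their TE calls are a description and not independent of the choice.

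Heat shock chaperones had far more RNA and footprints at 0.5 h AHS. The 18 listed genes together made up 4.04% of RNA-seq FPKM and 4.42% of Ribo-seq FPKM at 0.5 h AHS, summed over the genes in both tables, against 0.342% and 0.194% at no HS. Summed over all genes of the RNA-seq table, the shares were 1.66% at 0.5 h AHS and 0.147% at no HS. Of these 18 genes, 11 passed the expression rule. RNA was over 1.6-fold higher in 10 of the 11 and footprints in all 11 (3.8% and 9.45% over all genes). The median log2 change was 2.91 in RNA, 3.22 in footprints and 0.29 in TE. TE lay above no HS in 10 of the 11 (57.5% over all genes), but it was called higher only in l(2)efl (3.27% over all genes) and lower in none. These genes are known to respond to heat, and the expression rule let Hsp70Bc in only through its 0.5 h AHS values.

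The small heat shock proteins hold unfolding proteins without using ATP, and a cluster of their genes lies at chromosome 3L of dm6. Hsp22 (3L:9372931-9374964) had 1574 FPKM of RNA and 8156 FPKM of footprints at 0.5 h AHS, against 15.5 and 72.5 FPKM at no HS. This is a 102-fold gain in RNA and a 112-fold gain in footprints, and TE was 5.18 at 0.5 h AHS and 4.68 at no HS. Hsp23 (3L:9381882-9382765) had the most footprints of the list, 39160 FPKM at 0.5 h AHS against 643 FPKM at no HS, with RNA at 6813 and 120 FPKM. Its TE was 5.75 at 0.5 h AHS and 5.36 at no HS. Hsp26 (3L:9376418-9377427) had a TE of 4.69 at 0.5 h AHS and 3.97 at no HS, and Hsp27 (3L:9384063-9385694) of 7.41 and 5.95. In all 4 the bounds of RNA and of footprints did not overlap between the groups, while the interval of the TE change included 0. Hsp22 and Hsp27, like Hsp68, share their loci in the RNA table with other genes. Hsp67Bc, which lies in the same cluster, had a log2 TE change of 0.38 (95% interval -0.45 to 1.21).

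The alpha-crystallin family gene l(2)efl differed from these. It had 82.3 FPKM of RNA and 155 FPKM of footprints at 0.5 h AHS, against 54.1 and 59.5 FPKM at no HS. Its RNA was thus 1.52-fold higher and its footprints 2.61-fold higher, and the log2 TE change was 0.78 (0.11 to 1.45). Of the 11 chaperones it had the smallest gain in RNA.

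Among the ATP-driven chaperones and their partners, Hsp68, a member of the Hsp70 family (3R:24055080-24057310), had 2171 FPKM of RNA and 6146 FPKM of footprints at 0.5 h AHS, against 33.5 and 78.7 FPKM at no HS. Hsp83, the Hsp90 protein of Drosophila, was abundant in both groups, with 3308 FPKM of RNA at 0.5 h AHS and 915 FPKM at no HS. Its footprints were at 4657 and 1051 FPKM. The log2 TE change was 0.27 in Hsp68 (-0.48 to 1.02) and 0.29 in Hsp83 (-0.50 to 1.09). DnaJ-1, an Hsp40 that delivers clients to Hsp70, and stv, a BAG-family cochaperone, had log2 TE changes of 0.50 (-0.10 to 1.09) and 0.39 (-0.24 to 1.02), with RNA 5.12-fold and 5.51-fold higher.

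The 6 Hsp70 genes are near-identical copies, and the reads of one can be assigned to another, so their single values are uncertain. How reads that match several copies were treated is not stated. The sum over the copies, and their part in the chaperone shares above, is therefore uncertain too. Only Hsp70Bc passed the rule, with 18.9 FPKM of RNA and 10.1 FPKM of footprints at 0.5 h AHS against 0.469 and 0.349 FPKM at no HS. Its log2 TE change of -0.48 had an interval from -3.26 to 2.30. Hsp70Aa, Hsp70Ab, Hsp70Ba and Hsp70Bb had RNA between 2.21 and 12.4 FPKM and footprints between 0.302 and 0.576 FPKM at 0.5 h AHS, and footprints were listed at 0 at no HS. Hsp70Bbb had 5.54 FPKM of RNA and 20.8 FPKM of footprints at 0.5 h AHS, against 0.211 and 0.552 FPKM at no HS. Footprints of the copies thus fell mostly on Hsp70Bbb and Hsp70Bc, and RNA on Hsp70Bc and Hsp70Ab. Hsp67Ba had RNA above 10 FPKM in both groups (20.1 and 15.2 FPKM) but footprints of 1.94 and 1.63 FPKM, and the gene listed as CG4456 (Hsp67Bb) had RNA of 2.27 and 1.32 FPKM, so neither passed.

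**Figure D2:**
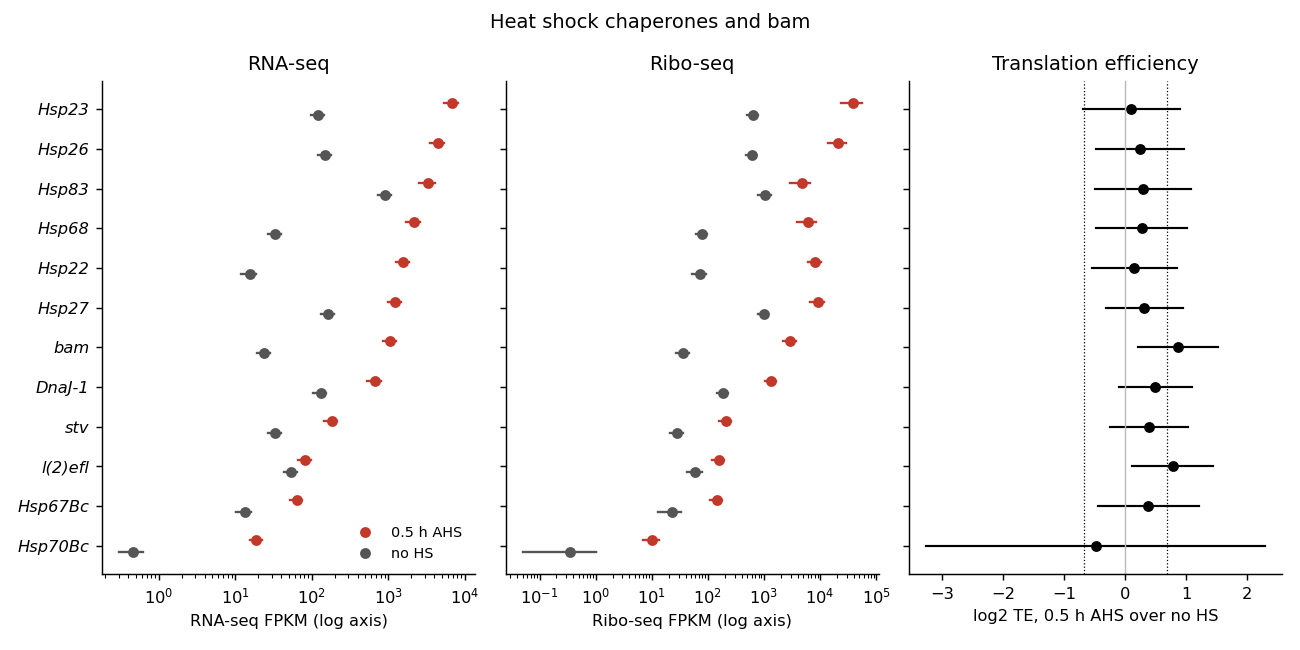
RNA-seq FPKM (left) and Ribo-seq FPKM (middle), both on log axes, and log2 change in TE (right) for the 11 heat shock chaperones over the FPKM minimum and bam. Red points are 0.5 h AHS and grey points no HS, bars are deposited 95% bounds (a bound at 0 is drawn at the left end) and, on the right, the 95% interval; the intervals of bam and l(2)efl lie above 0.

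The bam transgene carries a heat shock promoter, and the tables give 1 value for transgene and mutant locus (3R:25243039-25245109), in a locus of 2 genes. It had 1053 FPKM of RNA at 0.5 h AHS against 23.7 FPKM at no HS, and 2934 FPKM of footprints against 36.2 FPKM. RNA was thus 44.5-fold and footprints 81.1-fold higher, and TE was 2.79 at 0.5 h AHS and 1.53 at no HS, a log2 change of 0.87 (0.21 to 1.52). In the groups of 5, 9, 18, 28 and 38 h AHS, the TE of bam was 2.72, 1.85, 0.518, 0.918 and 0.629.

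Other protein folding genes also had larger median changes in footprints than in RNA. The 8 mitochondrial chaperones and proteases over the minimum had a median log2 TE change of 0.35. Of the 8, 7 lay above 0 (57.5% over all genes) and 0 were called (5.26% over all genes in both directions). Footprints were over 1.6-fold higher in 5 of the 8 and RNA in 4 (9.45% and 3.8% over all genes). Hsp60A, the mitochondrial chaperonin, had 290.5 FPKM of RNA and 586 FPKM of footprints at 0.5 h AHS, against 123 and 180 FPKM at no HS, and Trap1, the mitochondrial Hsp90, had a log2 TE change of 0.41 (-0.18 to 0.99). Of 17 cytosolic chaperones and cochaperones that are expressed without heat, 10 had footprints and 7 had RNA over 1.6-fold higher, with a median log2 TE change of 0.14 and 0 called. Stip1, which links Hsp70 to Hsp90, had the largest value, 0.37 (-0.22 to 0.96). The 13 endoplasmic reticulum chaperones had a median of 0.12, with 0 called. Xbp1, the transcription factor of the unfolded protein response, had 0.42 (-0.19 to 1.03), and Gp93, the Hsp90 of that compartment, 0.36 (-0.24 to 0.96).

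Muscle genes had the highest median of the lists. The ovary is wrapped in a muscle sheath, and 12 of 18 listed genes passed the rule. Their median log2 change was -0.52 in RNA, 0.15 in footprints and 0.74 in TE. TE lay above no HS in 12 of 12 and was called higher in 7 of 12 (57.5% and 3.27% over all genes). The intervals of 7 of the 12 lay above 0. Act57B, a muscle actin, had 422 FPKM of RNA and 208 FPKM of footprints at 0.5 h AHS, against 732 and 193 FPKM at no HS. Its TE was 0.494 at 0.5 h AHS and 0.263 at no HS (log2 change 0.91, 0.32 to 1.50). TpnC73F, a troponin C, had 91.0 FPKM of RNA at 0.5 h AHS against 134 FPKM at no HS, and 91.2 FPKM of footprints against 72.7 FPKM. In wupA, which encodes troponin I, RNA was at 71.0 and 99.5 FPKM and footprints were at 137 and 110 FPKM in the same order. Mp20, a calponin-like muscle protein, had the RNA closest to no HS, at 246 FPKM at 0.5 h AHS and 252 FPKM at no HS, with footprints at 333 and 194 FPKM. RNA was lower in all 12 genes, and footprints were higher in 8 of them. The muscle sheath markers Mhc, Mlc2, up, wupA and Act57B summed to 840 FPKM of RNA and 552 FPKM of footprints at 0.5 h AHS, against 1320 and 495 FPKM at no HS. In whole ovaries, fewer cells of a type and less RNA per cell cannot be told apart.

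Eggshell genes stood at the other end. Follicle cells secrete the vitelline membrane and the chorion late in egg chamber growth. The authors treated genes of these 2 layers as contaminants from somatic cells and left them out of their later analyses. Chorion and vitelline markers were detected in both groups, summing to 10651 FPKM of RNA at 0.5 h AHS and 9147 FPKM at no HS over 4 genes, and to 66279 and 113517 FPKM of footprints. Their single levels ran from 0.853 FPKM for Cp38 to 6718 FPKM for Vm26Aa in the RNA at 0.5 h AHS, and none was listed at 0. Of 28 listed somatic genes, 18 passed the rule, with a median log2 TE change of -0.44, 0 called higher and 7 called lower (1.99% over all genes). All 7 are eggshell genes, a subset of 9 that was separated after the values were seen. Among the other members, the yolk protein genes Yp1, Yp2 and Yp3 lay at -0.40, -0.35 and -0.28, and tj, a transcription factor of escort and early follicle cells, at -0.48.

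In 9 of these 9 eggshell genes footprints were lower at 0.5 h AHS, while RNA was higher in 6 of 9, and their median log2 change was 0.56 in RNA, -0.70 in footprints and -1.08 in TE. Vm34Ca, a vitelline membrane protein, had 11105 FPKM of RNA and 80515 FPKM of footprints at 0.5 h AHS, against 6637 and 109093 FPKM at no HS. Vm26Aa had 6718 FPKM of RNA at 0.5 h AHS against 5172 FPKM at no HS, and 35164 FPKM of footprints against 57301 FPKM. For psd, RNA was at 203 and 127.5 FPKM and footprints were at 532 and 774 FPKM, each time for 0.5 h AHS and no HS. Vm32E had the second-lowest change of the group, with TE at 9.82 at 0.5 h AHS and 48.0 at no HS, and Cp15, a chorion protein (3L:8728481-8729066), the lowest. Cp15 had little RNA, with 10.4 FPKM at 0.5 h AHS and 1.06 FPKM at no HS, and footprints at 425 and 830 FPKM. Its log2 TE change of -4.26 (-5.15 to -3.38) became -3.43 with 1 FPKM added to each value. The 2 exceptions were Cp36 (0.13, -0.81 to 1.06) and Cp7Fb (-0.51, -1.55 to 0.53), both in loci that the RNA table shares among 7 genes. Vm32E, among the called genes, also lies in a shared RNA locus, of 3 genes. Vm26Ac, outside the list, was also among the 12 largest falls, at -1.84 (-2.48 to -1.20). Escort and early follicle markers summed to 269 FPKM of RNA and 633 FPKM of footprints at 0.5 h AHS, against 345 and 817 FPKM at no HS, and the germline markers to 668 and 949 FPKM against 796 and 1202 FPKM. Whether the cell makeup of the dissected ovaries had a part in the eggshell and muscle values was not tested.

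**Figure D3:**
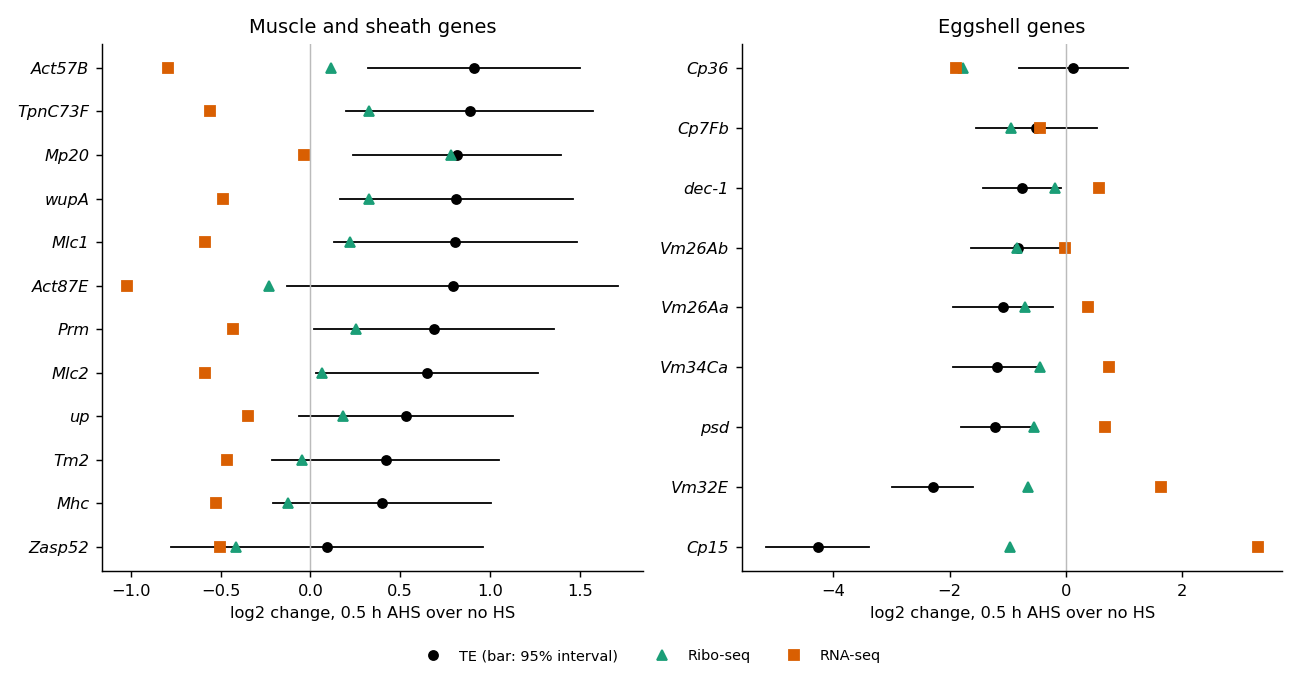
Log2 change, 0.5 h AHS over no HS, in RNA-seq FPKM (squares), Ribo-seq FPKM (triangles) and TE (circles with the 95% interval) for 12 muscle and sheath genes (left) and 9 eggshell genes (right). RNA lies left of footprints in all 12 muscle genes, and right of footprints in 8 of the 9 eggshell genes, Cp36 being the exception.

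Of 37 listed germline and cyst genes over the minimum, 32 were within 1.6-fold, 2 were called higher and 3 lower (3.27% and 1.99% over all genes), and the median was -0.05. The RNA helicase vas, a germ cell marker, had 184 FPKM of RNA and 349 FPKM of footprints at 0.5 h AHS, against 205 and 391 FPKM at no HS, and its TE was 1.90 and 1.91. The piRNA pathway protein aub had a TE of 1.94 at 0.5 h AHS and 1.79 at no HS. Against this, nos (3R:19157238-19160202), the translational repressor that maintains germline stem cells, had 42.7 FPKM of footprints at 0.5 h AHS and 112 FPKM at no HS. Its RNA was at 63.8 and 83.3 FPKM, so TE was 0.669 at 0.5 h AHS and 1.35 at no HS, a log2 change of -1.01 (-1.80 to -0.22). Its locus in the RNA table holds 4 genes. In the 5, 9, 18, 28 and 38 h AHS groups, the TE of nos was 0.384, 0.417, 1.19, 1.08 and 1.13. The oocyte RNA-binding protein orb had 23.3 FPKM of footprints at 0.5 h AHS and 50.7 FPKM at no HS, with a log2 TE change of -0.77 (-1.47 to -0.06). Sxl, the splicing regulator of sex determination, had -0.81, but its interval of -2.99 to 1.38 is wide.

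The genes called higher in this list were bam and dhd, a thioredoxin of the late oocyte and early embryo. In dhd, RNA was at 14.8 FPKM at 0.5 h AHS and 12.8 FPKM at no HS, and footprints were at 26.7 and 3.36 FPKM. The log2 TE change was 2.77 with a wide interval (0.36 to 5.18), and TE in the 5 later groups lay between 0.0475 and 0.465, against 1.80 at 0.5 h AHS and 0.264 at no HS. Footprints were also higher in gnu, a regulator of the embryonic cell cycles, which had 11.7 FPKM of footprints at 0.5 h AHS and 7.40 FPKM at no HS and less RNA (18.3 and 35.5 FPKM). Both values rest on few footprints. Among cell cycle genes, the Cdc25 phosphatases differed in direction, with twe, the meiotic one, at -1.04 (-2.05 to -0.03) and stg, the mitotic one, at 0.69 (-0.03 to 1.42). The other 24 of 26 cell cycle genes were within 1.6-fold (94.7% over all genes).

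Among the 12 largest rises with an interval above 0, E(spl)m3-HLH had the narrowest interval. This Notch target (3R:26021823-26023127) encodes a transcriptional repressor and has a short-lived RNA. It had 18.6 FPKM of RNA at 0.5 h AHS against 62.2 FPKM at no HS, while footprints were at 83.8 and 53.6 FPKM, a log2 TE change of 2.39 (1.70 to 3.08). E(spl)mbeta-HLH, of the same complex, had 19.1 and 60.7 FPKM of RNA and 19.6 and 20.5 FPKM of footprints (1.61, 0.61 to 2.60). Both were the only genes of 11 in the complex that passed the rule. The remaining members of the 12 largest rises were bru3, CG7646, dhd, PGRP-LD, gnu, E(spl)mbeta-HLH, CG8229, CG42807, CG16717, yellow-h and Mf, the last of which encodes a myofilament protein. Of the 12, 8 passed the footprint minimum only through their 0.5 h AHS value, so the rule selected for the rise in them: bru3, CG7646, dhd, PGRP-LD, gnu, CG8229, CG16717 and yellow-h. The RNA minimum was passed only through the no HS value in 3, bru3, PGRP-LD and CG42807. RNA is the denominator of TE, so this too selected for a rise. In 1, CG7646, it was passed only through the 0.5 h AHS value. In bru3 (4.36, 0.22 to 8.50) and CG7646 (3.02, 0.14 to 5.90) the footprint bounds reached 0 in both groups. Their footprint bounds thus overlapped between the groups, and the TE intervals above 0 are not secure for these genes. Both genes share their RNA locus with others, as do PGRP-LD, CG8229, yellow-h and Mf.

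The 12 largest falls with an interval below 0 were of several kinds, and 3 of them passed the footprint minimum only through their no HS value and 4 the RNA minimum only through their 0.5 h AHS value. In Cp15, obst-H, CG15721, anox, Vm32E, CG42681, Vm26Ac and CG18598, RNA was more than 1.6-fold higher at 0.5 h AHS and footprints were lower or had gained less. CG15721 had 152 FPKM of RNA at 0.5 h AHS against 1.67 FPKM at no HS, a 91.2-fold gain, while footprints were at 162 and 14.1 FPKM (log2 TE change -2.99, -3.68 to -2.31). In obst-H, a chitin-binding protein gene, RNA was at 20.4 and 0.207 FPKM and footprints were at 22.8 and 2.37 FPKM. The no HS RNA values of these genes are low, and with 1 FPKM added to each value the log2 changes were -2.41 in CG15721 and -1.33 in obst-H. In Cda5, KCNQ and CG11892, RNA was within 1.6-fold and footprints were lower. CG11892, for example, had 20.8 and 19.9 FPKM of RNA and 17.9 FPKM of footprints at 0.5 h AHS against 48.7 FPKM at no HS. St4, a sulfotransferase gene, had less of both, with footprints at 4.00 and 50.1 FPKM and RNA at 4.83 and 15.6 FPKM. Of the 12 falls, CG15721, anox, Vm32E, CG18598, Cda5 and KCNQ share their RNA loci with other genes.

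The 3 genes without a ratio had no footprints listed at no HS. CG42704 had 65.4 FPKM of RNA and 42.6 FPKM of footprints at 0.5 h AHS against 0.543 and 0 FPKM at no HS, CG42705 had 14.5 and 37.5 FPKM against 0.0293 and 0 FPKM, and CG13217 had 10.4 and 66.5 FPKM against 0.0472 and 0 FPKM. CG42704 (X:7412668-7413296) and CG42705 (X:7413869-7414662) are neighbours on the X chromosome. No fold is given for them, since the no HS value is listed at 0.

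The translation machinery itself stayed close to the median, with small shifts in some lists. Of 80 cytosolic ribosomal protein genes, 70 lay above 0 with a median log2 TE change of 0.23, made of 0.02 in RNA and 0.26 in footprints, and 2 were called higher (RpS9 at 0.74, 0.11 to 1.37, and RpL39 at 0.73, -0.36 to 1.83). Over all genes 3.27% were called higher, 57.5% lay above 0 and the median was 0.05. The 41 translation factors had a median of 0.02 and the 30 aminoacyl-tRNA synthetases of -0.02, with 0 called in each. eIF4H1, an initiation factor, and eRF1, the release factor, had the values furthest from 0 among the factors, at -0.44 (-1.04 to 0.16) and -0.41 (-1.01 to 0.18). Thor, the eIF4E-binding protein that restrains cap-dependent initiation, had 0.52 (-0.07 to 1.11), and PEK, an eIF2alpha kinase, 0.61 (-0.03 to 1.25) with RNA 2.07-fold higher. The poly(A)-binding protein pAbp was the only gene called among 25 messenger ribonucleoprotein and decay factors (5.26% called over all genes). It had 879 FPKM of RNA and 650 FPKM of footprints at 0.5 h AHS, against 979 and 390 FPKM at no HS, and its TE was 0.739 and 0.399 (log2 change 0.89, 0.27 to 1.51). Its locus in the RNA table holds 4 genes.

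In energy metabolism, the 66 respiratory chain and ATP synthase genes had a median log2 change of -0.37 in RNA, -0.19 in footprints and 0.22 in TE. Of the 66, 60 lay above 0 in TE and 0 were called (57.5% and 5.26% over all genes). UQCR-Q, a subunit of complex III, had the largest value (0.66, 0.05 to 1.27). The 11 glycolysis genes had a median of 0.26, with Tpi, triose phosphate isomerase, at 0.66 (0.05 to 1.27), and the 19 redox and metal response genes a median of 0.17. GstE6, a glutathione S-transferase, had RNA 3.43-fold and footprints 5.34-fold higher, and MtnA, a metallothionein, had a TE of 130 at 0.5 h AHS and 88.4 at no HS, with both intervals including 0. The 71 mitochondrial ribosomal protein genes had a median of 0.10 with 2 called higher and 2 lower (3.27% and 1.99% over all genes), and the intervals of all 4 (mRpS5, mRpS28, mRpL34 and mRpS16) included 0.

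Lists with a median below 0 also included the 32 proteasome genes (-0.10), the 10 SR splicing factors (-0.14), the 25 messenger ribonucleoprotein factors (-0.06) and the 45 DNA replication genes (-0.04). Rpn12 and Rpt2 of the proteasome lay at -0.39 (-0.99 to 0.20) and -0.38 (-0.97 to 0.21), and Rsf1 of the SR factors at -0.52 (-1.17 to 0.13). Of the 45 replication genes only Orc3, of the origin recognition complex, was called, at -0.69 (-1.32 to -0.05). Over all genes 1.99% were called lower. The median of the SR factors was 0.04 without genes in shared loci. The medians of ribosome biogenesis (0.06, with Non1 at 0.67 and Nop17l at 0.35), TOR and insulin signalling (0.07), the integrated stress response (0.07), nuclear pore genes (0.02, with Nup62 at 0.31 and Nup37 at -0.49) and core cytoskeleton (0.01, with betaTub97EF at -0.66 and gammaTub37C at -0.25) were near the median of all genes, with 0 called in each. CysRS-m and PheRS-m, the mitochondrial enzymes, led the synthetases at 0.44 and 0.41, Hex-A, a hexokinase, followed Tpi at 0.52, and SdhD followed UQCR-Q at 0.62. Of the 14 antimicrobial peptide genes and 111 replication-dependent histone genes, 0 passed the rule.

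**Figure D4:**
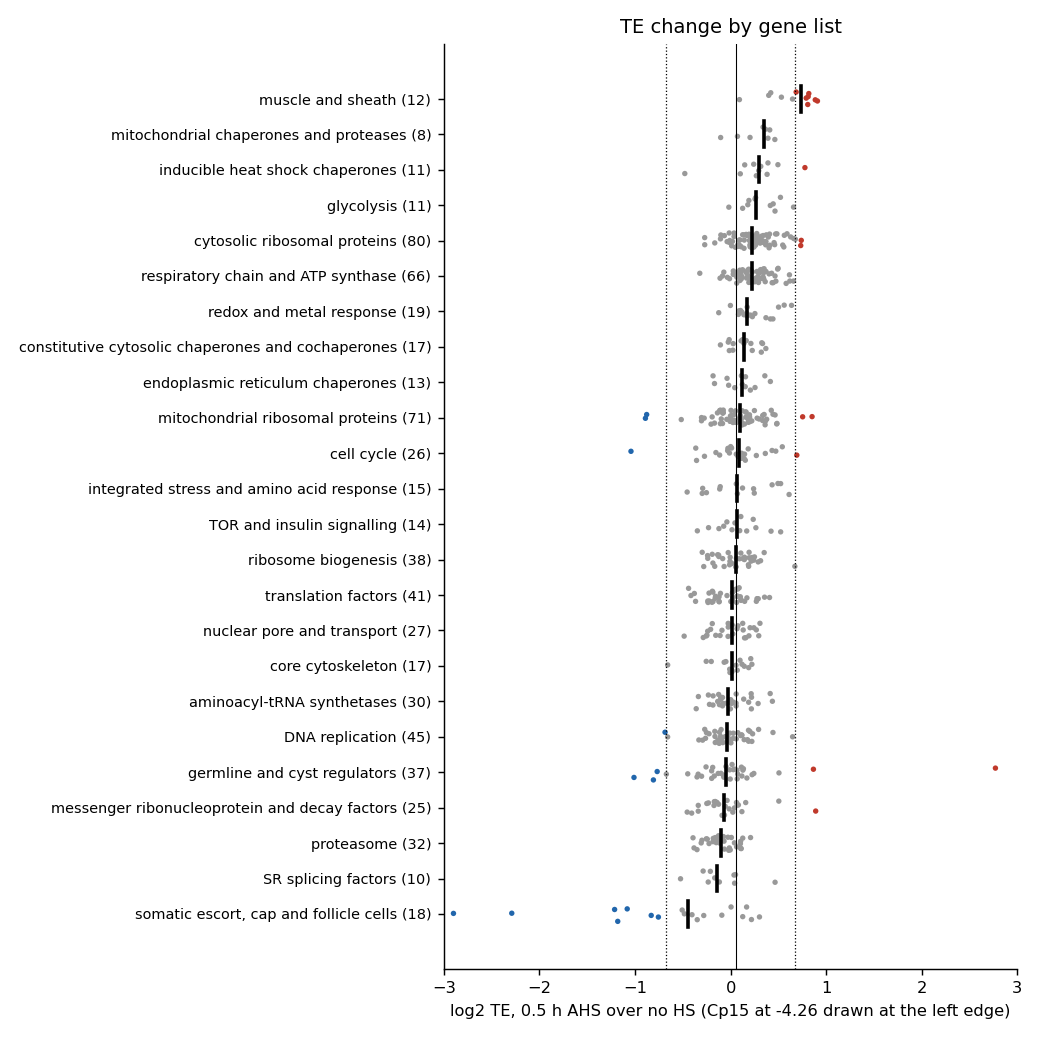
Log2 change in TE, 0.5 h AHS over no HS, for the members of 24 gene lists (number with a ratio in brackets), with a black bar at the list median. Red and blue points are past 1.6-fold (dotted lines), the thin line is the median of all 5872 genes at 0.05, and medians run between -0.44 for the somatic list and 0.74 for muscle and sheath.

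Transcript features were compared to see what called genes share that the rule did not use. The annotation held 5853 of the 5875 genes. Genes with lower TE had a median leader of 143 bases and those with higher TE of 194 bases, against 153 bases for genes within 1.6-fold. Coding sequences had a median length of 1119 bases in genes with higher TE and 982.5 bases in genes with lower TE, against 1380 bases in the rest, and the standard errors were larger in both called classes (median 0.44 and 0.45, against 0.34). By quartile of coding length, calls of higher TE made up 4.10%, 4.65%, 3.21% and 1.09% from the shortest to the longest, and calls of lower TE 3.28%, 1.78%, 1.92% and 0.957%. The median standard error was 0.38, 0.36, 0.34 and 0.32 in the same order. By coding length, calls of both kinds were thus rarest where the error was smallest. By quartile of no HS footprint FPKM, the highest quartile had the smallest median error (0.31). There, higher TE was called in 1.98% of genes and lower TE in 2.72%, the largest share of lower calls of these quartiles. In the lowest quartile the shares were 6.74% and 1.84%. Footprints at no HS enter the rule and the TE change as well as this grouping, so these shares are not independent of it. Whether error had a part in the calls was not tested.

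The share of A in the leader had a small gradient, with median log2 TE changes of 0.10, 0.05, 0.05 and 0.01 from the A-poorest to the A-richest quartile. The number of ATG triplets upstream of the start codon had none of note, with medians of 0.05, 0.04, 0.06 and 0.06 for 0, 1, 2 and at least 3. The base 3 before the start codon was A in 65.5% of genes, G in 24.3%, C in 5.45% and T in 4.81%, and the medians were 0.05, 0.06, 0.07 and 0.04. These are descriptions over genes with a median standard error of 0.34 each. By quartile of TE at no HS, calls of higher TE made up 7.02%, 2.79%, 1.63% and 1.63% from the lowest to the highest, and calls of lower TE 0.681%, 1.09%, 1.70% and 4.50%. TE at no HS enters both the grouping and the change, so the 2 are not independent.

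The later groups were set against the same no HS values. At 5, 9, 18, 28 and 38 h AHS, TE was called changed in 4.46%, 10.6%, 3.0%, 6.17% and 6.7% of genes. It was called higher in 46 (0.802%), 134 (2.31%), 57 (0.994%), 36 (0.624%) and 72 (1.24%) genes, and lower in 210 (3.66%), 482 (8.29%), 115 (2.01%), 320 (5.54%) and 317 (5.46%). Over the times of 0.5, 5, 9, 18, 28 and 38 h AHS, the muscle and sheath list had median log2 changes of 0.74, 0.11, -0.59, 0.05, -0.70 and -0.72. The chaperone list had 0.29, -0.39, -0.10, -0.40, -0.76 and -0.64 in the same order, and the cytosolic ribosomal proteins 0.23, 0.02, -0.41, -0.27, -0.60 and -0.20. The eggshell subset was below 0 at all 6 times, at -1.08, -0.97, -1.39, -0.35, -1.20 and -0.51. All these values share 1 no HS value per gene and assay, so they are set side by side and not compared.

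**Figure D5:**
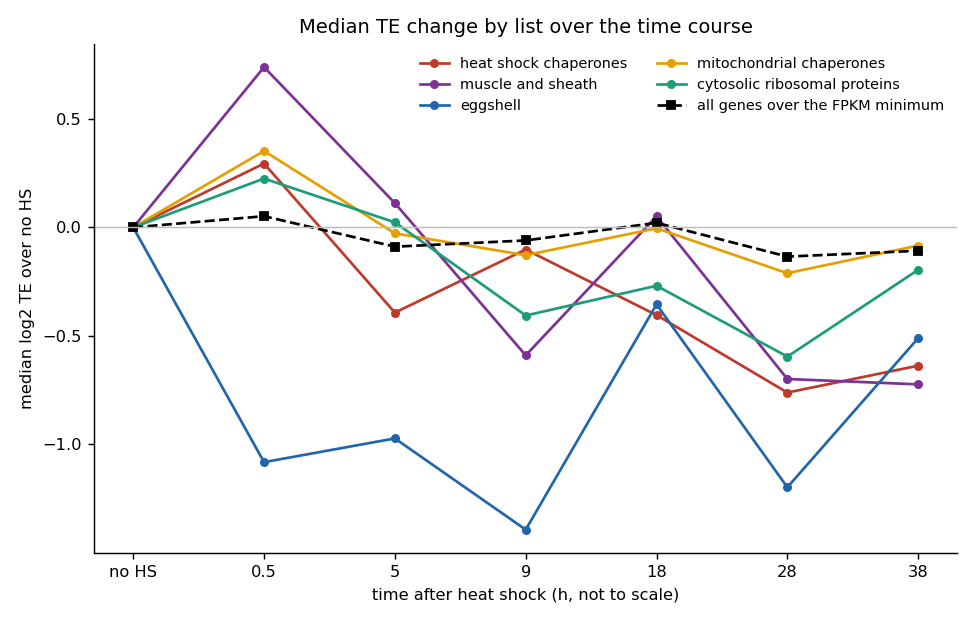
Median log2 change in TE over no HS (y axis) at 6 times after heat shock (x axis, not to scale) for 5 gene lists and, dashed, for all genes over the FPKM minimum at each time. At 0.5 h AHS the eggshell genes lie at -1.08 and the other lists shown between 0.23 and 0.74, with all genes at 0.05.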

How the data were processed

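Whole ovaries were lysed in cycloheximide, and per the labels RNA-seq used rRNA-depleted total RNA while Ribo-seq used RNase I footprints from ribosomes pelleted through a sucrose cushion. The authors removed reads of non-coding RNAs (Bowtie for Ribo-seq, Bowtie2 for RNA-seq), mapped the rest to dm6 with STAR and estimated the deposited FPKM values with Cuffdiff 2.2.1; redundant Ribo-seq reads had been excluded first. Each table holds 1 FPKM per gene and group over 2 replicates, with lower and upper 95% bounds 2 standard errors from the value, floored at 0. The locus in the Ribo-seq table was the coding extent within 3 bases for 96.7% of annotated members, and the RNA-seq locus overlapped the gene for 99.9%, so TE levels are mostly ratios over different lengths. Depth is not given by them, so precision was read from the bounds. The distance from a value to its upper bound had a median of 19.6% of the RNA-seq value at 0.5 h AHS and 19.8% at no HS, and of 25.1% of the Ribo-seq value in both groups.

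From these, TE ratios and log2 changes without a pseudocount were computed with Python 3.11.15, numpy 2.4.6 and pandas 2.3.3; standard errors came from the upper bounds by the delta method. The calculation was run on simulated data with planted changes past the threshold. The simulated errors were smaller than those of these data, so the run checked the arithmetic and not the error rate of the calls. No test was fitted, for lack of values per replicate. In 3 genes an estimate had a failed status; they stayed in the counts but not among the largest changes. Genes named are all inducible chaperones and bam, the 12 largest rises and falls with an interval excluding 0, up to 4 called (else the 2 furthest) members of each of 27 lists, vas and aub. The eggshell subset and the Enhancer of split genes were chosen after their values were seen. The members and lists were chosen with earlier results of these data known. Alternatives were other folds, FPKM minimums, a pseudocount, centring, intervals, and leaving out genes. Of 391 list entries, 9 were not found by name. RNA loci shared by several genes (2992 of 5875 genes) make the assignment of reads less certain. A few genes that this rule or the threshold would name are not reported here.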

Additional observations from a re-analysis of the deposited data

How the results depend on the processing

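No paired analysis was possible because the tables give 1 value per group over both replicates, and for the same reason neither a replicate block nor leaving out a replicate could be run. The main count was 309 of 5872 genes with changed TE (5.26%). With a minimum of 20 FPKM it was 178 of 4049 (4.4%, 110 higher and 68 lower). With no minimum it was 1750 of 9269 (18.9%, 1008 and 742). Without genes in shared loci it was 143 of 2881 (4.96%, 89 and 54). It was 102 at 2-fold (1.74%, 52 and 50) and 157 when the interval had to exclude 0 (2.67%, 97 and 60). Under the pseudocount, centring, an RNA minimum alone, leaving out genes with over 3-fold changed RNA and, chosen after seeing the data, requiring all 4 values over 10 FPKM or leaving out muscle and eggshell genes, the counts stayed within 1.5 times. With all 4 values over 10 FPKM, 7 called genes in place of 35 had both RNA and footprints past 1.6-fold, and higher TE was called in 30, 19 and 47 genes in the 5, 28 and 38 h AHS groups. The median of the chaperone list was 0.78 without genes over 3-fold changed in RNA, where 1 gene was left, and that of the integrated stress list was 0.47 without shared loci. With 1 FPKM added, the log2 TE changes of Cp15, obst-H and CG15721 were -3.43, -1.33 and -2.41. The medians of the germline, cytoskeleton, translation factor, nuclear pore and SR factor lists took both signs. Over all genes of each table the chaperones made up 1.66% of RNA FPKM at 0.5 h AHS and 0.147% at no HS. Depth is not known, so the bounds alone limit what can be said of low values.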
